A study of Mus musculus with 8 samples.

Results

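The Dlk1-Meg3 locus is an imprinted domain of distal mouse chromosome 12, and its 6 long genes Dlk1, Meg3, Rian, Mirg, Rtl1 and Dio3 were followed by symbol through all 8 libraries of skeletal myogenic cells. These are 6 of the 24980 gene symbols in the table of read counts, and all 6 passed the filter on low counts that left 17582 genes to test. Total RNA was sequenced from 2 biological replicates of each of 4 groups. TF cells were fresh teratoma-derived myogenic progenitors, sorted as CD31- CD45- α7-integrin+ VCAM-1+ cells that carried EGFP from teratomas grown by mouse embryonic stem cells (the E14-EGFP line, where the paper describes the teratomas) in irradiated, cardiotoxin-injured muscles of NSG-mdx4Cv hosts, and TE cells were such progenitors expanded in culture to passage 8. SF cells were fresh endogenous satellite cells of adult muscle, where they are the resident stem cells, and SE cells were satellite cells expanded to passage 8 as well. The strain, exact age and number of the mice that gave the satellite cells were not given in the sources used here, and the origin of the cells cannot be told apart from strain, from the age of the source or from cell line. No engineered change at the locus is described for any group, and the counts do not separate the maternal from the paternal chromosome.

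On the chromosome inherited from the father this domain makes the coding RNAs of Dlk1, Rtl1 and Dio3, and on the one inherited from the mother it makes a chain of noncoding RNAs, Meg3, Rian and Mirg, that holds a large group of microRNAs and small nucleolar RNAs. Which set is made is governed by DNA methylation at a control region between Dlk1 and Meg3, and loss of the maternal RNAs is a known fault of some pluripotent stem cell lines. In muscle, Dlk1 and Rtl1 are known for fetal growth and for the enlarged muscles of callipyge sheep, and the maternal RNAs are known to be high in quiescent satellite cells.

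In the GENCODE M21 annotation of GRCm38, Dlk1 (ENSMUSG00000040856.17) lies at chr12:109452823-109463336 on the plus strand, and Meg3 (ENSMUSG00000021268.17) follows at chr12:109541001-109571726, also on the plus strand. Rtl1 (ENSMUSG00000085925.3) lies at chr12:109589193-109600330 on the minus strand, antisense to the direction of the maternal RNAs. Rian (ENSMUSG00000097451.10) lies at chr12:109603940-109661716, Mirg (ENSMUSG00000097391.8) at chr12:109729764-109749460 and Dio3 (ENSMUSG00000075707.5) at chr12:110279068-110281097, all on the plus strand. RefSeq draws Rtl1 longer, from 109564900 to 109604418, so that it runs over the 3′ end of Meg3 and the 5′ end of Rian. The library kit keeps strand, but the strand setting of the counting was not given in the sources used here, and reads from Rtl1 and from RNA made across it in the other direction therefore cannot be told apart.

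The upstream RefSeq start of Meg3 is shown because transcription of the maternal RNAs begins there, and the starts of Dlk1 and Dio3 because these are the coding genes at the ends of the domain. The sequences are the 250 bases before each RefSeq start on GRCm38.p6, all on the plus strand, at chr12:109540746-109540995 for Meg3, chr12:109452573-109452822 for Dlk1 and chr12:110278980-110279229 for Dio3. Capitals mark TATAAA, TGACGTCA and CCAAT on either strand.
Meg3: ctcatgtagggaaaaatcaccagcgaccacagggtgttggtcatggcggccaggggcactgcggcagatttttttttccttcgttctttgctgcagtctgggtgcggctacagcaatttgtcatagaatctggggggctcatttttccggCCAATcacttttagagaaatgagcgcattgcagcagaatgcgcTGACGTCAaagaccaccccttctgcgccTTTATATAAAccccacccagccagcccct
Dlk1: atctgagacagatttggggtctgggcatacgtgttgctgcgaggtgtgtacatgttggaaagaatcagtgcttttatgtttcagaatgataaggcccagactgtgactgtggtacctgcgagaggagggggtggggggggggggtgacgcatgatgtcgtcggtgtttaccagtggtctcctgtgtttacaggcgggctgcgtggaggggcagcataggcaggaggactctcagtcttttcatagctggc
Dio3: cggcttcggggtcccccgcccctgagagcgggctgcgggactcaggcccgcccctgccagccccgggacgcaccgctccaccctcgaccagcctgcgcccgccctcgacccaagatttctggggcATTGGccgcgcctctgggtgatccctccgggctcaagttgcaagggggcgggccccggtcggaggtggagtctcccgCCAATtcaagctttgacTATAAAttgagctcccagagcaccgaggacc
In the Meg3 sequence TATAAA began 25 bases before the start, with a copy on the minus strand 29 bases before the start that overlapped it, TGACGTCA began 57 bases before the start and CCAAT 100 bases before it. The Dio3 sequence held TATAAA 31 bases before the start and CCAAT 48 bases before it, and on the minus strand 125 bases before it. In Dlk1 none of the 3 motifs was found. Of 32851 RefSeq promoters of 300 bases, 13.6% held TATAAA, 1.79% TGACGTCA and 37.4% CCAAT. The 300-base windows held 13 CpG in Meg3, 9 in Dlk1 and 25 in Dio3, beside a median of 7 over all promoters. A further RefSeq start of Meg3, downstream of the one shown, had its window at chr12:109545148-109545447. That window held 1 CpG and none of the 3 motifs. A match is a description of the letters only, and methylation was not measured in this series.

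The locus also holds 61 microRNA hairpins with a line of their own in the table, all of which had mature sequences in RefSeq (113 mature names). Sequences of 3 kinds are printed, with the seed (bases 2 to 8) in capitals, on the plus strand of GRCm38.p6. Mir377, inside Mirg, is shown because it was the hairpin whose counts passed the main test (edgeR). Another program (DESeq2) passed more of the small RNA lines, as given below.
miR-377-5p: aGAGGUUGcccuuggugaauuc
miR-377-3p: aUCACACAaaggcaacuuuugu
Mir379, Mir1193 and Mir411 are shown because miR-379-5p and miR-1193-5p share the seed GGUAGAC and miR-379-3p and miR-411-3p share AUGUAAC.
miR-379-5p: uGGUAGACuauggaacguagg
miR-1193-5p: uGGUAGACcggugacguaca
miR-379-3p: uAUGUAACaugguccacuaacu
miR-411-3p: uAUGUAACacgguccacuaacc
Mir127 and Mir136 are shown because they lie antisense to Rtl1, and their mature forms are known to act on its RNA.
miR-127-5p: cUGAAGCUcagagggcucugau
miR-127-3p: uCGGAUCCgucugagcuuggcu
miR-136-5p: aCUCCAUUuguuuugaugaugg
miR-136-3p: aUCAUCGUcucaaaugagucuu
The whole reverse complement of these 4 and of 7 further mature microRNAs, from 6 hairpins in all, was found in the Rtl1 transcript of 6358 bases.

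The totals lay between 11930961 and 21146632 counts a library, and the ribosomal RNA precursor Rn45s took 7.99% to 21.3% of them. Values below are normalized counts, that is counts divided by a library's relative effective size (trimmed mean of M values, TMM), and at the depth of these libraries 3 counts, the limit that a count of 0 allows, were 2.31 to 4.13 normalized counts. This limit covers counting error only. Myogenic markers were present in every library (Pax7 between 1279 and 5211). The fresh libraries also held markers of other cell types: summed endothelial markers were 1560 to 4830 in TF and 5120 to 6630 in SF, against 58.6 to 113 in TE and 66.3 to 104 in SE. TF replicate 1 stood apart from TF replicate 2, with haematopoietic markers at 7990 against 697. In bulk RNA, fewer cells of a type and less RNA per cell cannot be told apart.

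Dlk1, which encodes a membrane protein related to the Notch ligands, was the member most tied to fresh teratoma-derived cells. Its normalized counts were 7887 and 7517 in TF, 101 and 155 in TE, 115 and 123 in SF, and 244 and 119 in SE. Both TF libraries lay far above the other 6, whose values overlapped. With expansion Dlk1 fell by 5.91 on the log2 scale in teratoma-derived cells (SE 0.38, edgeR quasi-likelihood test, Benjamini-Hochberg adjusted p = 8.9e-06), 60.1-fold. In satellite cells expansion left no called change, with a log2 fold change of 0.61 (SE 0.33, adjusted p = 0.163), which was called without SE replicate 2 (1.05, adjusted p = 0.00681) and without the filter on low counts (adjusted p = 0.0459). Between the fresh groups Dlk1 was 64.5-fold higher in TF than in SF (log2 6.01, SE 0.38, adjusted p = 6e-05). The difference between the effects of culture in the 2 origins was -6.52 on the log2 scale (SE 0.49, adjusted p = 9.2e-05).

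Several markers of other cell types were higher in TF than in TE together with Dlk1. All 9 fibro-adipogenic and adipogenic markers had a higher mean in TF than in TE, with summed levels of 6800 to 6810 in TF, 215 to 223 in TE, 3390 to 5550 in SF and 436 to 543 in SE. Of the 9, 4 had a higher mean in TF than in SF. Fabp4 (191 and 78.3 in TF) and Plin1 (23.4 and 3.91 in TF) were at 0 in TE. Adipoq was at 0 in TE too, but at 1.38 and 0 in TF it lay under the limit of 3 counts there as well. Pdgfra, the defining receptor of fibro-adipogenic progenitors, was 4406 and 4581 in TF and 9.90 and 3.40 in TE. All 6 cartilage markers were likewise higher in TF (7140 to 11600) than in TE (205 to 216), with Acan and Col9a1 at 0 in TE. Their sums were 4960 to 5440 in SF and 1060 to 2050 in SE, and 4 of the 6 had a higher mean in TF than in SF. All 6 endoderm and hepatoblast markers stood at 0 in TE, beside sums of 462 to 592 in TF, 131 to 147 in SF and 0 to 6.55 in SE. Of these, 5 had a higher mean in TF than in SF. Afp (16.5 and 0) and Foxa2 (114 and 0) were seen in TF replicate 1 but not in TF replicate 2. The part of these cells in the Dlk1 level was not tested. Without TF replicate 1 the log2 fold change of Dlk1 in TE versus TF was -5.85, and without TF replicate 2 it was -5.91. Leaving out either TF library does not test that part, since the fibro-adipogenic sums were alike in both (6800 to 6810).

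**Figure D1:**
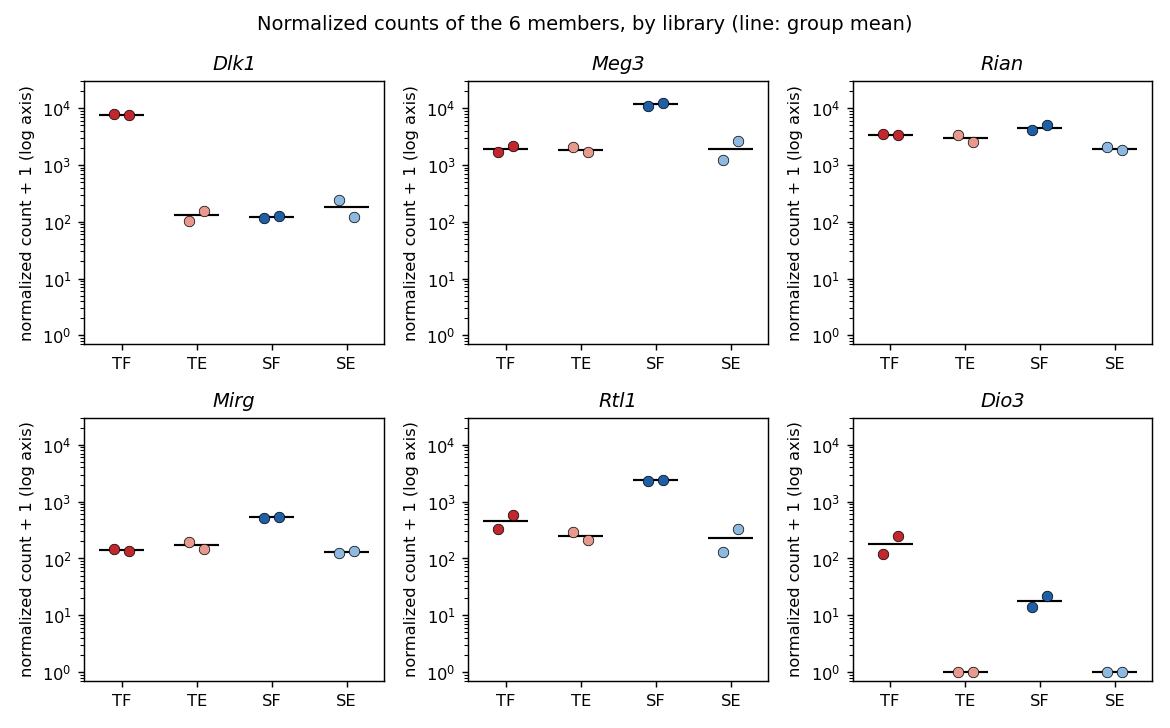
Normalized counts plus 1 on a log axis for each member (panels), with a point for each of the 8 libraries and a line at the mean of each group of 2. Dlk1 stands out in TF (7887 and 7517), Meg3, Mirg and Rtl1 stand out in SF, Rian has the narrowest range, and Dio3 is at 0 in all TE and SE libraries.

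Dio3, the enzyme that inactivates thyroid hormones, was seen in fresh cells of both origins. It had 117 and 247 normalized counts in TF and 13.1 and 20.9 in SF, and 0 in both libraries of TE and of SE. Dio3 was called lower by edgeR in TE than in TF (adjusted p = 0.00258) and in SE than in SF (adjusted p = 0.00883). With the expanded groups set at the limit of 3 counts a library, the mean of TF was 72.4-fold above TE and that of SF 6.64-fold above SE. These folds make no allowance for the spread between the fresh libraries. TF was higher than SF by 3.41 on the log2 scale (SE 1.02, adjusted p = 0.0465), a call that was lost in 7 of 14 alternatives: with median-ratio size factors (adjusted p = 0.0573), with a replicate block (0.0657), with glmTreat, a test against the fold threshold (0.0556), and without any of the 4 fresh libraries, namely without TF replicate 1 (3.85, adjusted p = 0.0711), TF replicate 2 (2.76, adjusted p = 0.419), SF replicate 1 (3.10, adjusted p = 0.152) or SF replicate 2 (3.80, adjusted p = 0.105). With both expanded groups at 0, no size could be given for a difference between the effects of culture. Its antisense neighbour Dio3os (chr12:110275385-110278172, minus strand), which starts close to the start of Dio3, had 30.3 and 23.5 normalized counts in TF, 10.7 and 0 in SF and 0 in the other 4 libraries, and no comparison of it was called (adjusted p = 0.121 for TE versus TF). Where strand was not used in the counting, antisense pairs cannot be told apart.

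Rtl1, a coding gene derived from a retrotransposon, differed in order from Dlk1 and Dio3 and was highest in fresh satellite cells. Its normalized counts were 336 and 576 in TF, 294 and 207 in TE, 2294 and 2428 in SF, and 128 and 335 in SE. The SF libraries lay above the other 6, and the values of TE and SE overlapped. Rtl1 fell by 3.36 on the log2 scale from SF to SE (SE 0.45, adjusted p = 0.000336), 10.2-fold, and TF lay 2.37 below SF (log2 -2.37, SE 0.43, adjusted p = 0.00427). From TF to TE the log2 fold change was -0.87 (SE 0.42, adjusted p = 0.157), which was called without the filter on low counts (adjusted p = 0.0095) and without SE replicate 1 (adjusted p = 0.0276) or SE replicate 2 (adjusted p = 0.0277). The transcript 6430411K18Rik, placed by RefSeq at chr12:109591537-109592851 within Rtl1 and antisense to it, was at 0 in TF and SF, 8.45 and 5.73 in TE, and 49.2 and 31.5 in SE, and was higher in SE than in SF (adjusted p = 0.0355), a call lost in 7 of 14 alternatives, among them without any 1 of the TE, SF or SE libraries (adjusted p up to 0.211). This transcript passed the filter on low counts through its SE libraries alone, so the call is drawn from a line chosen by its SE level. Its counts were not whole numbers, as when reads are shared out between transcripts, so the split between it and Rtl1 is uncertain.

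Meg3, the noncoding RNA at the head of the maternal chain, was also highest in fresh satellite cells. Its normalized counts were 1683 and 2196 in TF, 2032 and 1673 in TE, 11090 and 12540 in SF, and 1226 and 2625 in SE. The SF libraries stood well above all others, while TF, TE and SE overlapped. Meg3 fell by 2.62 on the log2 scale from SF to SE (SE 0.34, adjusted p = 0.000263), 6.14-fold, and was 6.09-fold lower in TF than in SF (log2 -2.61, SE 0.34, adjusted p = 0.000808). From TF to TE its log2 fold change was -0.07, with a 95% interval from -0.78 to 0.65 (adjusted p = 0.902), so that a fall as large as that in satellite cells lay outside the interval. The effects of culture differed between the origins by 2.55 (SE 0.46, adjusted p = 0.00605).

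Mirg, the noncoding host of many of the microRNA hairpins, was likewise highest in SF, at a lower level. Its normalized counts were 143 and 132 in TF, 192 and 145 in TE, 516 and 542 in SF, and 126 and 132 in SE. Again the SF libraries alone stood apart. It fell by 2.04 on the log2 scale from SF to SE (SE 0.34, adjusted p = 0.00113) and was lower in TF than in SF by a log2 difference of -1.94 (SE 0.34, adjusted p = 0.00334). From TF to TE the change was 0.30 (95% interval from -0.44 to 1.03, adjusted p = 0.537), and the effects of culture differed by 2.33 (SE 0.47, adjusted p = 0.00998), a call that was lost without TE replicate 1 (adjusted p = 0.0541).

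Rian, the noncoding host of a row of small nucleolar RNAs, had the narrowest range of group means on the log scale. Its normalized counts were 3451 and 3364 in TF, 3356 and 2505 in TE, 4119 and 4983 in SF, and 2049 and 1813 in SE. The SF libraries were the highest and the SE libraries the lowest, without overlap with other groups. Rian fell by 1.24 from SF to SE (SE 0.20, adjusted p = 0.00115), 2.36-fold, while TE versus TF gave -0.22 (adjusted p = 0.453) and TF versus SF -0.42 (adjusted p = 0.165; 0.0257 and called with DESeq2). The difference between the effects of culture, 1.02 (SE 0.29, adjusted p = 0.042), was called in 5 of 13 alternatives, and was lost with a replicate block or glmTreat and without either TF library, either TE library, SF replicate 2 or SE replicate 2 (adjusted p up to 0.264, without TE replicate 1).

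Markers of other cell types were also higher in SF than in SE. All 8 endothelial markers had a higher mean in SF, with Cdh5, Kdr, Emcn and Cldn5 at 0 in SE, and all 5 Schwann markers did, with sums of 1290 to 1520 in SF, 112 to 174 in SE, 233 to 366 in TF and 78.6 to 99.5 in TE. The part of these cells in the levels of Meg3, Mirg, Rtl1 and Rian was not tested.

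**Figure D2:**
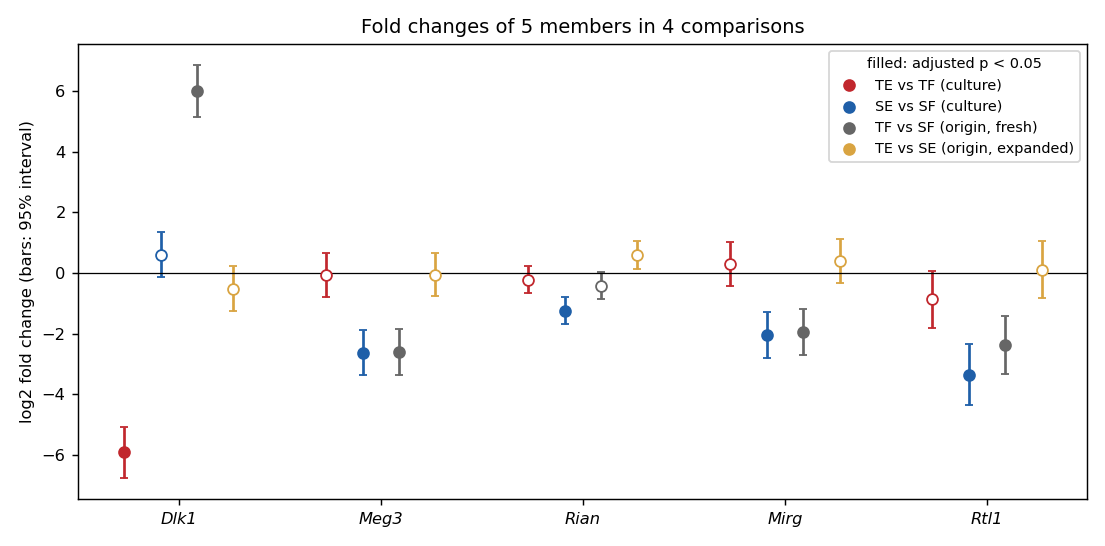
Log2 fold changes of 5 members (horizontal axis) in 4 comparisons (colours), with bars for the 95% interval of the edgeR fit and filled points where the adjusted p is below 0.05. Dlk1 moves with TF (-5.91 and 6.01), Meg3, Mirg and Rtl1 move with SF, and none of the 5 is called between TE and SE.

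Counted over the 6 members, 2 were called lower in TE than in TF (Dlk1 and Dio3) and none higher. Of all tested genes 26.1% were called there, 16.2% lower and 9.86% higher. In SE versus SF, 5 were called lower (Meg3, Rian, Mirg, Rtl1 and Dio3), with 40.7% of tested genes called, 19.8% lower and 20.9% higher. In TF versus SF, 2 were called higher (Dlk1 and Dio3) and 3 lower (Meg3, Mirg and Rtl1), where 24.2% of tested genes were called, 15.1% higher and 9.13% lower. The difference between the effects of culture was called for 5, upward for Meg3, Rian, Mirg and Rtl1 and downward for Dlk1, where 14.3% of tested genes were called, 4.7% upward and 9.62% downward. These comparisons share libraries and are not independent of each other.

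After expansion no member differed between the 2 origins by the test. In TE versus SE, 0 of the 6 members were called by edgeR, where 7.21% of tested genes were called (3.15% higher and 4.07% lower), 1 had an unadjusted p below 0.05, and DESeq2 called 0. The log2 differences were -0.51 for Dlk1 (95% interval from -1.24 to 0.22), -0.05 for Meg3 (from -0.77 to 0.66), 0.39 for Mirg (from -0.34 to 1.12) and 0.12 for Rtl1 (from -0.83 to 1.06). For Rian the interval ran from 0.15 to 1.05 around 0.60, with an adjusted p of 0.12. Without SE replicate 2, Dlk1 was called lower in TE (-0.93, adjusted p = 0.0365). Missing the threshold does not show equal levels. Dio3 was at 0 in both groups.

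Per kilobase of the union of exons over all transcripts of a gene, Dlk1 led in TF with 1360 normalized counts per kilobase, followed by Rian with 187, Meg3 with 107, Dio3 with 89.5, Rtl1 with 71.7 and Mirg with 18.8. In SF the order was Meg3 with 653, Rtl1 with 371, Rian with 250, Mirg with 72.5, Dlk1 with 21.1 and Dio3 with 8.37. In TE, Rian led with 161 and Meg3 followed with 102. By this length Meg3 and Rian both had 106 in SE and did not separate beyond the spread of Meg3. The union of exons was 18234 bases for Rian, where the longest transcript had 8089, and 7292 against 3822 for Mirg. For Meg3 it was 18089 against 14548, and for Rtl1 6358 in both. The place of Rian beside Rtl1 in SF and beside Meg3 in SE therefore depends on the length used.

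Ratios within a library do not depend on its scaling. The count of Dlk1 per count of Meg3 was 4.69 and 3.42 in TF, 0.0495 and 0.0929 in TE, 0.0104 and 0.00983 in SF, and 0.199 and 0.0452 in SE. Groups were ordered TF highest and SF lowest, with TE and SE overlapping between them. Meg3 per Rian was 2.69 and 2.52 in SF, against 0.488 and 0.653 in TF, 0.606 and 0.668 in TE, and 0.598 and 1.45 in SE. Mirg per Rian was 0.125 and 0.109 in SF, 0.0613 and 0.0727 in SE, 0.0573 and 0.0579 in TE, and 0.0415 and 0.0392 in TF. The 3 maternal RNAs were thus not higher in equal proportion in SF, and Rian, which lies between the other 2, was higher by the least. Rtl1 per Meg3 was similar in the fresh groups, 0.199 and 0.262 in TF and 0.207 and 0.194 in SF, and lower in both expanded groups, 0.145 and 0.123 in TE and 0.104 and 0.128 in SE.

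**Figure D3:**
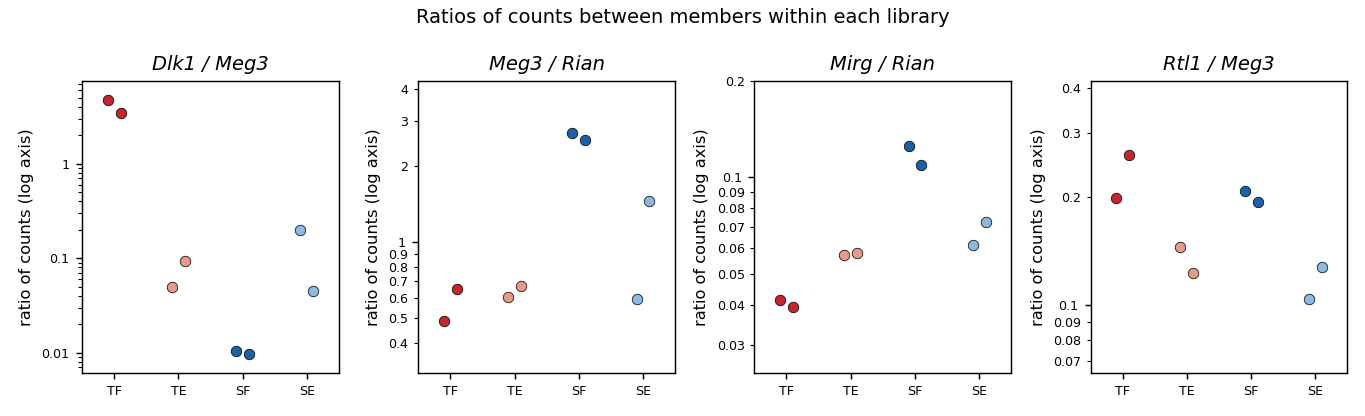
Ratios of raw counts between members within each library, on log axes that differ between panels, with a point per library. Dlk1 per Meg3 spans from 4.69 in TF to 0.00983 in SF, while Meg3 per Rian and Mirg per Rian are highest in SF.

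Over the 8 libraries, the log2 levels of Meg3 correlated most with those of Rtl1 (Pearson r = 0.966) and Mirg (0.956), less with Rian (0.699), and with Dlk1 at -0.364. Dlk1 and Dio3 had r = 0.802. These are descriptions over 8 libraries of 4 groups that share the contrast between groups. Among 12720 other genes whose mean reached 50 normalized counts, the most alike to Dlk1 were Pcolce (0.990), Krt17 (0.990) and Mlc1 (0.988), to Meg3 Atl2 (0.993), Akap7 (0.989) and Zmym5 (0.986), and to Mirg Hivep2 (0.994), Tsc22d2 (0.992) and Usp37 (0.987). For Rtl1 they were Sap18 (0.988), Clcf1 (0.984) and Stat5a (0.981), for Rian Zfp142 (0.969), Rap1b (0.968) and Lrrc8a (0.966), and for Dio3 Dbx1 (0.998), Nova1 (0.997) and Lama2 (0.995).

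The lines of the small RNAs hold reads of long total RNA that fell on hairpin or snoRNA sequences, and say nothing of mature microRNAs. Summed over the 61 hairpins of the locus, normalized counts were 33.0 and 142 in TF, 92.9 and 136 in TE, 947 and 1232 in SF, and 116 and 143 in SE. Fresh satellite cells again stood apart, 12.4-fold above the TF mean, 9.53-fold above TE and 8.41-fold above SE. The TF sums lay far apart, and the fold over TF was 7.66 without TF replicate 1 and 33 without TF replicate 2. Hairpins elsewhere in the genome behaved in the same direction by less: the 1100 other hairpin lines summed to 4030 and 3058 in SF, 615 and 691 in TF, 739 and 688 in TE, and 1039 and 1481 in SE, so that SF was 5.43-fold above TF, 4.97-fold above TE and 2.81-fold above SE. The locus took 19% and 28.7% of all hairpin counts in SF, against 5.09% to 17.1% in the other 6 libraries, and the share did not overlap. These sums were not tested.

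Along the locus the larger stretches with counts were each highest in SF. The 15 hairpins between Meg3 and Rian had 268 and 251 normalized counts in SF and between 7.96 and 33.7 in the other 6 libraries. The 39 hairpins from Mir379 to Mir3072, around the start of Mirg, had 635 and 936 in SF and between 23.4 and 119 elsewhere. The 7 snoRNAs within Rian had 168 and 241 in SF, 66.0 and 70.5 in TF, 36.3 and 19.5 in TE, and 37.0 and 57.0 in SE. Rian itself had 4119 and 4983 in SF and 3451 and 3364 in TF, a log2 difference of -0.42 that edgeR did not call and DESeq2 did. The 109 snoRNA lines elsewhere were 2.61-fold higher in SF than in TF and 1.88-fold higher than in SE, where the 7 of the locus were 2.99-fold and 4.35-fold higher.

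**Figure D4:**
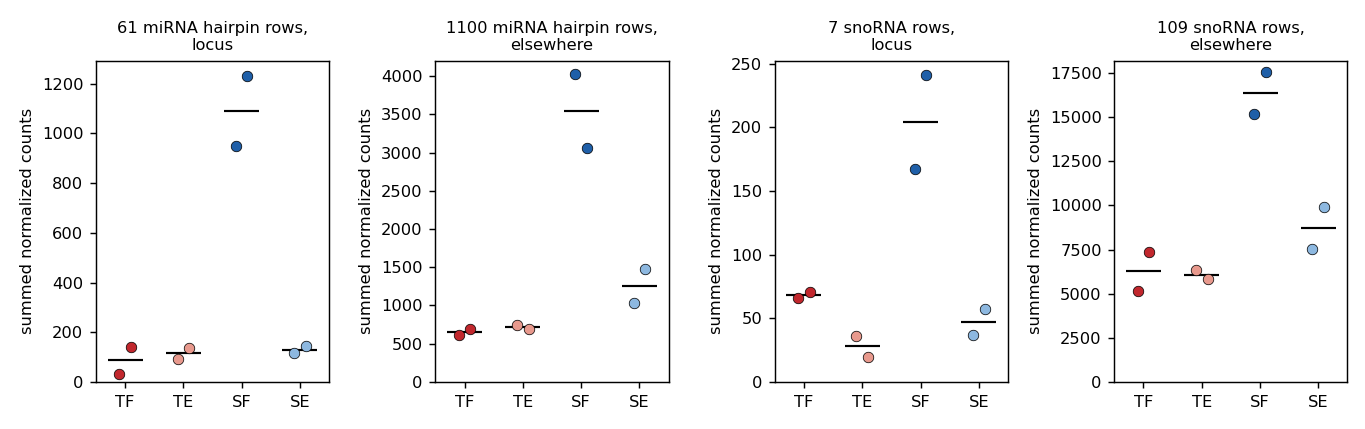
Summed normalized counts of microRNA hairpin and snoRNA lines inside and outside the locus, with a point per library and a line at the group mean, on linear axes from 0. SF is highest in all 4 panels, by 12.4-fold over TF for hairpins of the locus (7.66 without TF replicate 1, 33 without TF replicate 2) and 5.43-fold for hairpins elsewhere.

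Of single lines, 24 hairpins and 5 snoRNAs passed the filter. Mir377, whose sequence is given above, had raw counts of 0 and 0 in TF, 6 and 10 in TE, 76 and 164 in SF, and 10 and 0 in SE. By edgeR it was called lower in SE than in SF (adjusted p = 0.0341) and lower in TF than in SF (adjusted p = 0.016). The SF mean was 33.7-fold above TF set at the limit of 3 counts, with no allowance for the spread in SF. Only its SF libraries reached the count that the filter asked for. These calls are therefore drawn from a line chosen by its SF level. The call in SE versus SF was lost without SF replicate 1, SF replicate 2 or SE replicate 2 (adjusted p up to 0.182), and that in TF versus SF without SF replicate 2 (adjusted p = 0.0762). In TE versus TF 0 of the 29 small RNA lines were called by edgeR, with 3 at an unadjusted p below 0.05 and 2 called by DESeq2. In TE versus SE 0 were called, with 2 at an unadjusted p below 0.05 and 0 called by DESeq2. Mir377 was the 1 line called by edgeR in SE versus SF and in TF versus SF. There 5 and 7 lines had an unadjusted p below 0.05, and DESeq2 called 6 in each. Of all tested genes edgeR called 26.1% in TE versus TF, 7.21% in TE versus SE, 40.7% in SE versus SF and 24.2% in TF versus SF. Most of these lines held few counts. Mir1193 and Mir379, which share a seed, had 63.0 and 127 and 22.6 and 23.1 normalized counts in SF, and Mir379 was at 0 in the other 6 libraries. The lines of Mir127, Mir136, Mir431, Mir433 and Mir434 were at 0 in all libraries and Mir432 held under 5 counts in any, which at these sequences cannot be told apart from reads given to Rtl1. Counts of Mir3070a and Mir3070b, which share miR-3070-5p, are uncertain in the same way. The noncoding 3110009F21Rik, between Mirg and Dio3, had 25.9 and 12.4 in SF, 33.9 and 1.87 in SE and 0 in TF and TE, and was not called in any comparison.

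Most genes on either side of the domain were not called, which held for tested genes in general too. Of 19 tested neighbours from Evl to Traf3, 2 were higher and 2 lower in TE versus TF, and 3 higher and 1 lower in SE versus SF. Of all tested genes 9.86% were higher and 16.2% lower in TE versus TF, and 20.9% and 19.8% in SE versus SF. The neighbours had a median log2 fold change of -0.03 and -0.11 in these comparisons, beside -0.18 and -0.23 over all tested genes. Wars, the tryptophan tRNA synthetase, rose in both cultures (1.65, SE 0.22, adjusted p = 0.000515, and 1.27, SE 0.22, adjusted p = 0.00142). Hsp90aa1, a chaperone, fell in both (-0.75, SE 0.23, edgeR adjusted p = 0.0403 in teratoma-derived cells, and -1.09, SE 0.23, adjusted p = 0.00487 in satellite cells). Its call in teratoma-derived cells was not followed through the alternatives. Begain, the coding gene next to Dlk1, went from 213 and 201 normalized counts in TF to 27.2 and 29.7 in TE (-2.86, SE 0.79, adjusted p = 0.0254), in the same direction as Dlk1. This call was lost without any 1 of the 4 TF and TE libraries (adjusted p up to 0.117), and in satellite cells its change was not called (-0.62, SE 0.75, adjusted p = 0.522). In TF versus SF, 2 neighbours were higher, led by Ppp2r5c (1.13, SE 0.19, adjusted p = 0.00299), and 1 was lower, Hsp90aa1 (-1.10, adjusted p = 0.00916). In TE versus SE, Wars alone was called (0.92, adjusted p = 0.0305), and the effects of culture differed for Ppp2r5c alone (-1.18, adjusted p = 0.0175). Of all tested genes 24.2% were called in TF versus SF, 7.21% in TE versus SE and 14.3% for the difference between the effects of culture.

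**Figure D5:**
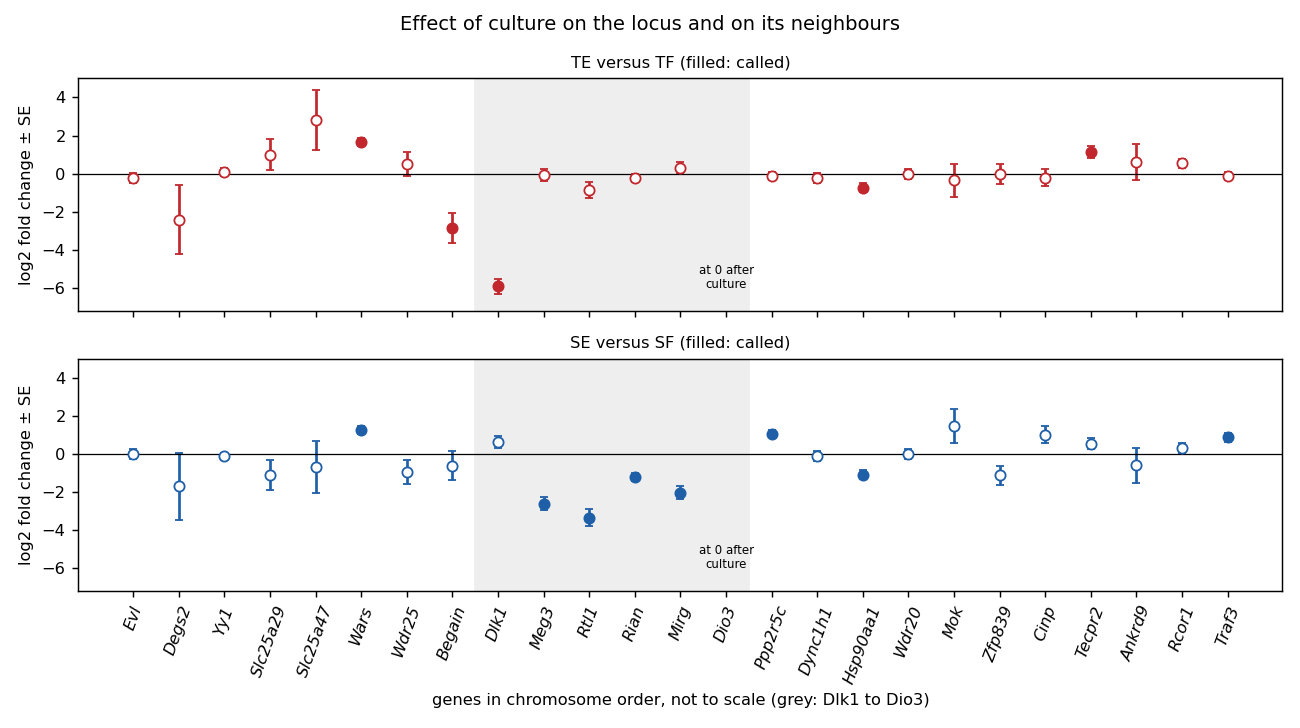
Log2 fold change with SE for TE versus TF (upper) and SE versus SF (lower) of the members (grey band) and 19 neighbours in chromosome order, filled where called. Dlk1 and Begain fall in the upper panel, and Meg3, Rtl1, Rian and Mirg in the lower one, beside neighbours that are mostly not called. Of all tested genes 26.1% were called in the upper comparison and 40.7% in the lower.

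The counts of the lists of related genes that follow stand beside these shares of all tested genes, 9.86% higher and 16.2% lower in TE versus TF, 20.9% and 19.8% in SE versus SF, 15.1% and 9.13% in TF versus SF, 3.15% and 4.07% in TE versus SE, and 4.7% and 9.62% for the difference between the effects of culture.

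Among genes that keep or write imprints and DNA methylation, 17 were tested, with a median log2 fold change of 0.23 in TE versus TF and 0.55 in SE versus SF, beside -0.18 and -0.23 over all tested genes. In TE versus TF 3 were higher, led by Zfp57, a zinc finger protein that holds methylation at imprinted control regions (2.06, SE 0.38, adjusted p = 0.00379), and 5 were lower, led by Aff3, a factor known to bind at the control region of this locus (-4.88, SE 0.50, adjusted p = 0.000118). In SE versus SF 7 were higher, led by Uhrf1, which brings the maintenance methylase to replicated DNA (5.09, SE 0.84, adjusted p = 0.00112), and 5 lower, led by Aff3 (-2.62, SE 0.45, adjusted p = 0.0015). In TF versus SF 8 were higher, led by Uhrf1 (4.71, adjusted p = 0.00363), and 1 lower, the DNA demethylase gene Tet2 (-1.03, adjusted p = 0.00702). In TE versus SE 1 was higher (Tet3, 1.28, adjusted p = 0.00222) and 1 lower (Tet1, -1.59, adjusted p = 0.0145), and the effects of culture differed for 5, all lower, led by Uhrf1 (-4.56, adjusted p = 0.0185).

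Mef2 factors are known to act on the maternal RNAs in muscle cells. Of 4 tested, 2 rose from TF to TE, led by Mef2a (2.10, SE 0.28, adjusted p = 0.000501), and 2 from SF to SE, led by Mef2c (3.79, SE 0.44, adjusted p = 0.000141). Mef2c was also higher in TF than in SF (2.10, adjusted p = 0.00621). No member of the list was called in TE versus SE or for the difference between the effects of culture.

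Notch receptors and ligands, to which Dlk1 is related, had 2 called higher and 6 lower of 11 tested in each culture, where 9.86% of all tested genes were called higher and 16.2% lower in TE versus TF, and 20.9% and 19.8% in SE versus SF. Jag2, a ligand, rose from 175 and 106 to 1278 and 1105 normalized counts in teratoma-derived cells (3.09, SE 0.29, adjusted p = 6.6e-05) and from 158 and 121 to 2116 and 1801 in satellite cells (3.81, SE 0.29, adjusted p = 1.5e-05). Dll4, a ligand best known from endothelium, went from 422 and 101 in TF to 0 in TE (adjusted p = 0.00388) and from 238 and 206 in SF to 0 and 12.2 in SE (adjusted p = 0.011). None was called in TF versus SF, the comparison in which Dlk1 differed 64.5-fold, and 1, Notch4, was lower in TE than in SE (adjusted p = 0.034).

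Genes of thyroid hormone handling, the pathway in which Dio3 acts, had 9 of 15 tested called lower in TE versus TF, 6 called lower in SE versus SF and none called higher in either, where 16.2% and 19.8% of all tested genes were called lower. The median log2 fold change of the list was -1.5 and -1.14 in the 2 cultures, beside -0.18 and -0.23 over all tested genes. Thrb, a thyroid hormone receptor, went from 120 and 150 normalized counts in TF to 0 in TE (adjusted p = 0.000546). Hr, a corepressor that responds to the hormone, went from 2360 and 2986 in SF to 12.3 and 143 in SE (-5.13, SE 0.78, adjusted p = 0.000725). In TF versus SF, 2 were higher, led by the receptor Thra (1.02, adjusted p = 0.0329), and 2 lower, led by Klf9 (-1.87, adjusted p = 0.00144). In TE versus SE 2 were lower, led by Thrb (adjusted p = 0.00643), and the effects of culture differed upward for Klf9 (2.46, adjusted p = 0.00309) and downward for Thrb (adjusted p = 0.00638).

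Of the retrotransposon Gag-like genes, the family of Rtl1, 9 were tested. In TE versus TF 1 was higher, Peg10 (0.60, SE 0.18, adjusted p = 0.0374), and 2 lower, led by Rtl8c (-4.51, adjusted p = 0.0043). In SE versus SF 3 were higher, led by Rtl6 (2.76, adjusted p = 0.00207), and 1 lower, Rtl8c (-2.55, adjusted p = 0.0269). In TF versus SF 4 were higher, led by Rtl3 (3.22, SE 0.71, adjusted p = 0.0108), and none lower, and Rtl3 also led the 2 that were higher in TE than in SE (4.73, adjusted p = 0.006). The effects of culture differed downward for 2, led by Rtl8a (-1.89, adjusted p = 0.0342). Rtl8a, Rtl8b and Rtl8c are near-identical copies, so the split of reads between them is uncertain.

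Of imprinted genes elsewhere in the genome 29 were tested, and the share of all tested genes called was 26.1%, 40.7%, 24.2%, 7.21% and 14.3% in the 5 comparisons in the order given. Of the 29, 4 were higher and 13 lower in TE versus TF, 10 higher and 12 lower in SE versus SF, 10 higher and 6 lower in TF versus SF, 5 higher and 7 lower in TE versus SE, and 2 higher and 7 lower for the difference between the effects of culture. H19, a maternal noncoding RNA, was at 0 in TE after 5022 and 1378 normalized counts in TF (adjusted p = 0.000112), and reached 135800 and 306400 in SE from 612 and 473 in SF (8.67, SE 0.79, adjusted p = 6.7e-05). Its paternal neighbour Igf2, a fetal growth factor, was higher in TF than in SF (85770 and 96660 against 1912 and 2062, 5.52, SE 0.49, adjusted p = 0.000164), in the same direction as Dlk1. Grb10, a growth inhibitor, went the other way (-5.77, SE 0.69, adjusted p = 0.000546), Cdkn1c was higher in TE than in SE (3.50, adjusted p = 0.00844), and Usp29 rose from TF to TE (1.86, adjusted p = 0.00218). Dcn fell from SF to SE (9105 and 15560 to 0 and 15.9, adjusted p = 2.5e-05), and Mcts2 gave an upward difference between the effects of culture (2.65, adjusted p = 0.0359).

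Of 55 calls tallied for genes named beside the members, Mir377, 6430411K18Rik and Airn (in the closing observations) included, 36 were kept in each alternative tried. Those lost in at least 1 alternative, beside Begain, Mir377 and 6430411K18Rik, follow with the number of alternatives that lost them. That number is out of 14, or out of 13 for the difference between the effects of culture. In TF versus SF they were Hsp90aa1 (2), Rtl3 (1), Thra (5) and Tet2 (1). In TE versus TF it was Peg10 (7), and in SE versus SF Rtl8c (7). In TE versus SE they were Notch4 (3), Tet1 (2), Thrb (1) and Wars (4). For the difference they were Mcts2 (8), Ppp2r5c (4), Rtl8a (4) and Uhrf1 (1). The highest adjusted p among their alternatives was 0.251, for Peg10.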

How the data were processed

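The authors deposited 1 table of estimated counts of reads, not normalized, for 24980 gene symbols in 8 libraries of total RNA (strand-specific pico-input kit). The submitters' processing notes name CASAVA, kallisto 0.44.0 and the builds GRCm38 and mm10, and the annotation and strand setting are not given in the sources used here. All 8 columns were used and 0 were left aside. The estimated counts were rounded, filtered with filterByExpr, scaled by TMM and tested with edgeR 4.0.16 (quasi-likelihood test, R 4.3.3) in 1 fit over the 4 groups. A gene was called at a Benjamini-Hochberg adjusted p below 0.05 over 17582 genes and a fold above 1.25. The fit was tested on simulated data. Intervals are 95% intervals from the SE of the fit. The labels do not say that the replicates came from separate animals or cultures (the paper calls them biological replicates), and p-values measure only the spread between these libraries, which may in part be technical. The replicates of each group differed beyond sampling noise (chi-square per degree of freedom 12.1 to 93.0) and were kept apart.

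The members, the gene lists and the tests were chosen with earlier results of these data known. Named were the 6 members, every other symbol between Dlk1 and Dio3 or antisense to a member, the 3 genes most alike to each member (Pearson r of log2(normalized count + 1), mean of at least 50 normalized counts), and for each list the called gene of largest change in each direction with that mean. Genome positions are from GENCODE M21 and RefSeq (GRCm38.p6), with sequences from RefSeq. Counts per kilobase used the union of GENCODE exons. Alternatives were median-ratio size factors, no filter, DESeq2 1.42.0, only the 2 groups compared, a replicate block, glmTreat and each library left out.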

Additional observations from a re-analysis of the deposited data

Results flagged for a closer look

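The effect of culture differed between the 2 origins, by the test of that difference (TE minus TF, less SE minus SF, edgeR quasi-likelihood test with adjusted p), for 5 of the 6 members. Of all tested genes 14.3% were called by it, 4.7% upward and 9.62% downward. On the log2 scale the difference was -6.52 for Dlk1 (adjusted p = 9.2e-05), 2.55 for Meg3 (adjusted p = 0.00605), 1.02 for Rian (adjusted p = 0.042), 2.33 for Mirg (adjusted p = 0.00998) and 2.49 for Rtl1 (adjusted p = 0.0225). The call of Rian was kept in only 5 of 13 alternatives, and that of Mirg in 12 of 13. Dlk1 fell in teratoma-derived cells and was not called in satellite cells, and the other 4 fell in satellite cells and were not called in teratoma-derived cells. The microRNA hairpin Mir377 was picked out by the same test (adjusted p = 0.0353), but its fitted difference of 10.8 rests on 2 TF libraries at 0 counts and is no measure of size. It also passed the filter on low counts through its SF libraries alone. That call was lost in 6 of 13 alternatives, without either TF library, either SF library or TE replicate 2 and with a replicate block (adjusted p up to 0.123).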

How the results depend on the processing

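Over the alternatives tried, the calls of Dlk1 in TE versus TF and TF versus SF, of Meg3, Mirg and Rtl1 in SE versus SF and TF versus SF, of Rian in SE versus SF, of Dio3 in both cultures, and of the differences between the effects of culture for Dlk1, Meg3 and Rtl1 were kept in each. The cause of the changes below was not tested. In TE versus SE the count of called genes went from 1268 to 2260 without the filter and to 2117 with DESeq2. With 1 library left out at a time, where a lone library is assumed to vary like the other groups, called genes ranged from 2739 to 5439 in TE versus TF (4581 with all), from 2639 to 5072 in TF versus SF (4261), from 653 to 1698 in TE versus SE and from 1467 to 2996 for the difference between the effects of culture (2517), and the lowest counts came without a TE or, in TF versus SF, a TF library. Members called ranged from 3 to 5 for that difference (3 without TE replicate 1) and from 0 to 1 in TE versus SE. Median-ratio size factors moved the median log2 fold change of all genes by -0.19 in SE versus SF, -0.16 in TF versus SF and 0.14 for the difference between the effects of culture, and in TF versus SF gave 2110 genes higher and 1943 lower in place of 2655 and 1606. Values that crossed 0 with 1 library left out, given as ranges over the libraries left out, none called where they crossed, were Meg3 in TE versus SE (0.024 with the block, and from -0.49 to 0.60 with 1 library left out), Meg3 in TE versus TF (from -0.22 to 0.17), Rian in TE versus TF (from -0.41 to 0.0037), Rtl1 in TE versus SE (from -0.41 to 0.97) and Dlk1 in TE versus SE (from -0.93 to 0.12). Replicate numbers only name the libraries: deviations of same-numbered libraries correlated between -0.026 and 0.0756. A replicate block gave 4321, 6757, 3979, 1205 and 2327 called genes in TE versus TF, SE versus SF, TF versus SF, TE versus SE and the difference, and the members it lost were Dio3 in TF versus SF (adjusted p = 0.0657) and Rian for the difference (0.056). The depth limits what can be said of the hairpin lines, most of which held few counts.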

Other observations

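Airn, Kcnq1ot1 and Peg13, imprinted noncoding RNAs named here after their values were seen, were highest in fresh satellite cells, whereas H19, another, was highest in SE (135800 and 306400 normalized counts, against 612 and 473 in SF). Airn, the antisense RNA of the Igf2r domain, had 93.5 and 92.4 normalized counts in TF, 76.0 and 55.4 in TE, 1093 and 1268 in SF, and 109 and 235 in SE. It was lower in SE than in SF by a log2 difference of -2.78 (SE 0.39, edgeR adjusted p = 0.00043) and lower in TF than in SF (-3.66, SE 0.41, adjusted p = 0.000399). Kcnq1ot1, the antisense RNA of the Kcnq1 domain, had 144200 and 25340 in SF against 3175 to 16110 in the other 6 libraries, and its SF replicates lay far apart. Peg13, a noncoding RNA, had 650 and 784 in SF, 188 and 109 in SE, 63.3 and 11.7 in TF, and 7.42 and 0 in TE.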
